A study of Mus musculus with 8 samples.

Results

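The genes of the autophagy machinery and the autophagy receptors were followed in neural retinas lacking multifunctional protein 2 (MFP2). Members were the 19 gene symbols of the count tables that start with Atg and a digit, together with named receptors, kinases, lipid kinase subunits, WIPI proteins and the ATG8 family, which gave 42 of 43472 symbols. Of these, 39 had enough counts to be tested. Of the 3 others, Atg4a-ps, a pseudogene by its symbol that GENCODE lists as protein-coding, had 0 counts in all 8 libraries. Atg9a and Atg9b, which encode transmembrane proteins of the phagophore, had 1 to 13 and 0 to 8 counts per library. Atg9a shares 1832 exon bases with Gm29253 on the same strand, and Atg9b shares 294 with Nos3 on the other strand. Gm29253 itself had 0 counts. In each library 0.26% to 0.34% of reads were recorded as ambiguous between genes. How many of these came from the shared bases is not known, so the low counts of Atg9a and Atg9b need not mean low expression.

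RNA was taken from whole neural retinas of 3-week-old C57BL/6J mice, with both retinas of 1 mouse in each library, and sequenced from the 3′ ends of transcripts (QuantSeq). The 4 Mfp2-/- mice lacked the gene in all cells and came from heterozygous breeding. The 4 controls were 3 Mfp2+/+ mice and 1 Mfp2+/- mouse, which was control replicate 2. MFP2, encoded by Hsd17b4, catalyses the second and the third step of peroxisomal β-oxidation, and the comparison asks how its loss changes retinal gene expression.

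Hsd17b4 itself had 47, 20, 78 and 37 counts in the controls and 1, 0, 1 and 0 counts in the Mfp2-/- libraries, as the labels say. Each library held between 1895485 and 3226187 reads counted in genes. Mfp2-/- replicates 2 and 3 stood apart, since 10.8% and 15.7% of their reads lay outside annotated genes against 22.6% to 29.9% in the 6 others. Values without both are given for the members that gained or lost a call and for some other genes. The defining markers of the retina were present and their balance differed between genotypes. All 20 rod markers tested were lower in Mfp2-/- retinas, with a summed level of 42871 to 46503 CPM, the counts of a gene scaled to the size of its library, in controls and 2101 to 2939 CPM in Mfp2-/- retinas. All 13 microglia markers tested were higher (88.1 to 109 against 461 to 589 CPM), as were 10 of 15 Müller glia markers (4642 to 5286 against 6157 to 8129 CPM) and all 9 reactive glia markers (139 to 165 against 1079 to 1354 CPM). Cone markers were lower for 7 and higher for 2 of 12 (1666 to 1918 against 1088 to 1176 CPM). The rod list was not exclusive to rods, since it held Rcvrn, which encodes recoverin, placed by the authors in both rods and cones. Pigment epithelium markers were present in both groups (295 to 533 against 486 to 827 CPM, 1 of 11 higher). DESeq2 and limma-voom each called 2 of these 11, and 5 had an unadjusted edgeR p under 0.05. Red blood cell markers were present too (219 to 779.9 against 244 to 447 CPM). Of these, 0 of 4 were called by edgeR, DESeq2 or limma-voom and 4 had an unadjusted edgeR p under 0.05. No marker of these lists was at 0 counts in all libraries. In such bulk samples fewer cells of a type and less RNA per cell cannot be told apart, and the part of these shifts in the results on autophagy genes was not tested.

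Macroautophagy encloses cytoplasm in a double membrane, the phagophore, which closes into an autophagosome and is delivered to the lysosome. The ULK1 kinase complex starts the process, a class III phosphoinositide 3-kinase marks the membrane, ATG9, ATG2 and WIPI proteins supply and shape it, and a conjugation system related to ubiquitination attaches ATG8 proteins (LC3 and GABARAP) to its lipids. Receptors such as p62, NBR1, optineurin and TAX1BP1 bind ubiquitinated cargo and ATG8 proteins at the same time, and in the retina both the photoreceptors, which renew their outer segments throughout life, and the inner neurons and glia carry out autophagy.

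Of the 39 members tested, 2 were higher and 6 were lower in Mfp2-/- retinas, which is 20.5% (edgeR's quasi-likelihood test, Benjamini-Hochberg adjusted p under 0.05). Among all 12516 genes tested the same rule called 27%, with 13.8% higher and 13.2% lower, so the share of autophagy genes called was not above that of the transcriptome. The genes that rose were Sqstm1 and Gabarap, and those that fell were Optn, Tax1bp1, Nbr1, Atg16l1, Atg4c and Pik3c3. The median log2 fold change over the members was -0.10, against -0.0039 over all genes tested, and the median size of the change was 0.24 against 0.40. With total counts alone or upper-quartile factors in place of TMM factors the median of all genes moved to 0.12 and that of the members to 0.02 and 0.03, so its sign depends on the scaling while it stays below that of all genes. The share of higher genes among all called genes moved as well, from 51.2% to 65.2% and 64.2%. Optn, Tax1bp1 and Atg16l1 fell by more than 1 on the log2 scale, whereas 46.3% of all called genes passed that size. The 4 libraries of each genotype did not overlap for 12 members (30.8%), of which 3 were higher and 9 lower. Over all genes tested 30.9% did not overlap, 15.1% being higher and 15.8% lower.

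**Figure D1:**
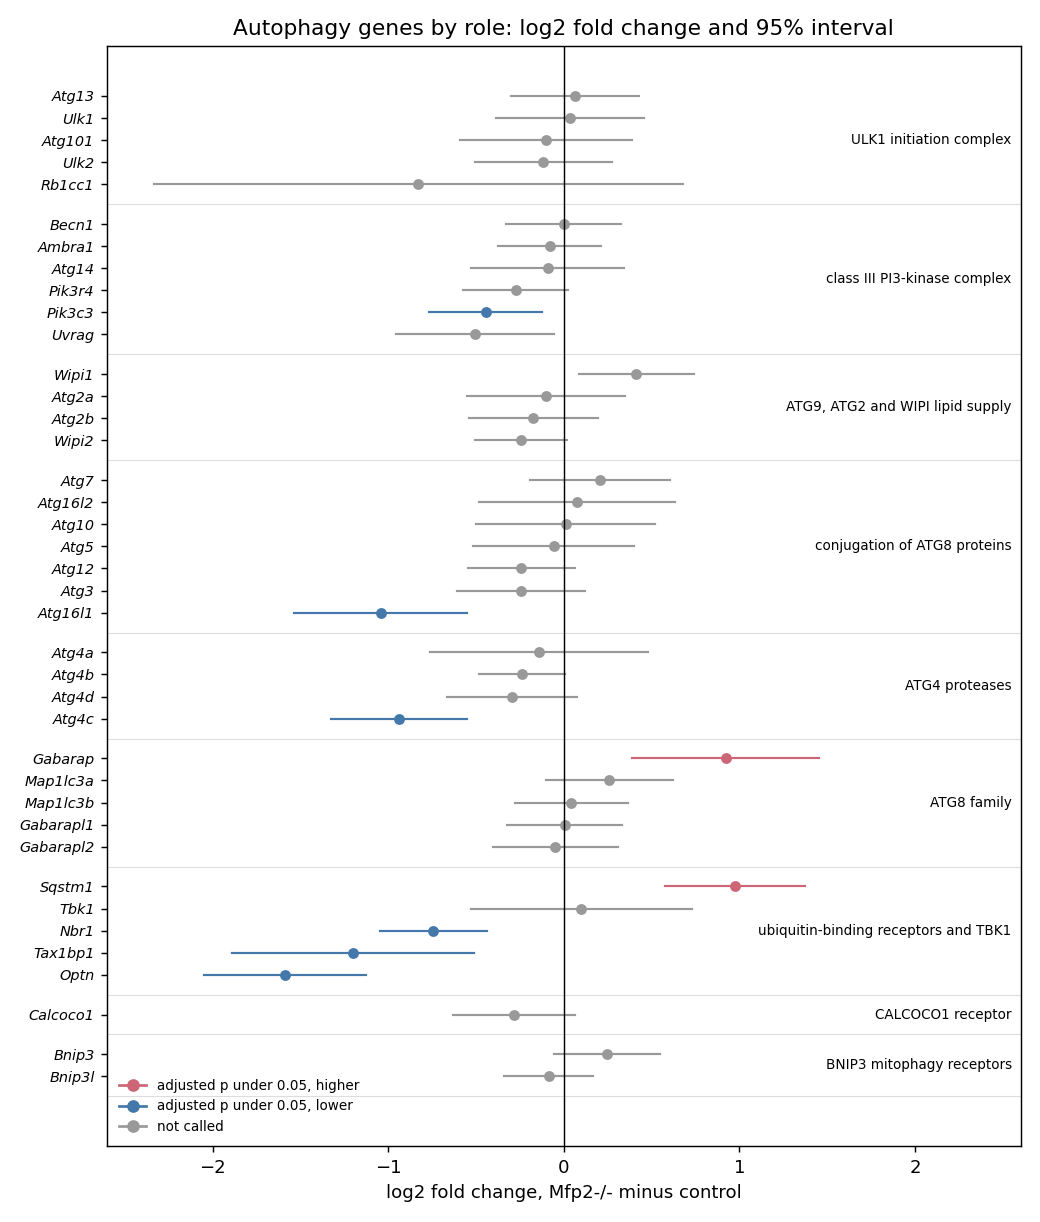
Log2 fold changes (x axis, Mfp2-/- minus control) of the 39 autophagy genes tested, grouped by role, with points for the estimate and lines for its 95% interval. The called genes run from -1.59 for Optn to 0.97 for Sqstm1, and the intervals of 30 of the 31 genes not called lie within -1 and 1.

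The role of ubiquitin-binding receptors and their kinase TBK1 held the furthest shifts in both directions, with 1 of 5 genes higher, 3 lower and 1 not called. Over all genes tested 13.8% were higher and 13.2% lower, and the members were chosen with earlier results known. Sqstm1, which encodes the receptor p62 that gathers ubiquitinated proteins into condensates, stood at 163, 159.7, 189.7 and 163 CPM in controls and at 254, 457, 321 and 296 CPM in Mfp2-/- retinas. Every Mfp2-/- library was above every control, with replicate 2 the highest. The mean rose 1.96-fold, from 169 ± 13.96 to 332 ± 87.8 CPM (SD, n = 4), a log2 fold change of 0.97 (SE 0.18, edgeR adjusted p = 0.00284). Without Mfp2-/- replicates 2 and 3 it was 0.70 (adjusted p = 0.00112). In that comparison 26% of the genes tested were called.

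Optn, which encodes optineurin, a receptor for damaged mitochondria and bacteria that is phosphorylated by TBK1, stood at 71.0, 67.9, 88.7 and 84.3 CPM in controls. In Mfp2-/- retinas it was at 16.3, 33.5, 30.3 and 24.3 CPM. The groups lay far apart, and the lowest value was that of Mfp2-/- replicate 1, in which 27.5% of reads lay outside genes. Optn fell 3.01-fold, from 78.0 ± 10.1 to 26.1 ± 7.58 CPM (SD, n = 4), with a log2 fold change of -1.59 (SE 0.21, edgeR adjusted p = 3.1e-04). This was the smallest adjusted p among the members. Without Mfp2-/- replicates 2 and 3 the log2 fold change of Optn was -1.95 (edgeR adjusted p = 4.9e-06).

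Tax1bp1 encodes a receptor that works with NBR1 and p62 on protein aggregates, and had the most counts of all members. It stood at 879, 660.0, 573 and 717 CPM in controls and at 425, 140.2, 239 and 425 CPM in Mfp2-/- retinas. All Mfp2-/- values were below all control values, and the lowest were those of replicates 2 and 3. The mean fell 2.30-fold from 707 ± 129 to 308 ± 142 CPM (SD, n = 4), with a log2 fold change of -1.20 (SE 0.31, edgeR adjusted p = 0.0167). The size rested in part on those libraries. Without both the log2 fold change was -0.74 (adjusted p = 0.00421), and without replicate 3 alone it was -1.10 and no longer passed (adjusted p = 0.0547).

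Nbr1, a receptor related in its architecture to p62 and active on aggregates and peroxisomes, stood at 131, 141, 153 and 152 CPM in controls and at 90.9, 74.2, 77.3 and 102 CPM in Mfp2-/- retinas. Here too the groups were separate, and the spread was small in each. Nbr1 fell 1.67-fold from 144 ± 10.05 to 86.1 ± 12.8 CPM (SD, n = 4), with a log2 fold change of -0.74 (SE 0.14, edgeR adjusted p = 0.00274). Without Mfp2-/- replicates 2 and 3 it was -0.59 (edgeR adjusted p = 0.00417). Tbk1, the kinase that acts on optineurin and p62, had few counts, at 13.2 to 20.8 CPM in controls and 11.2 to 27.6 CPM in Mfp2-/- retinas. It was not called (log2 fold change 0.10, 95% interval -0.53 to 0.73), nor without Mfp2-/- replicates 2 and 3 (0.50, edgeR adjusted p = 0.130).

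**Figure D2:**
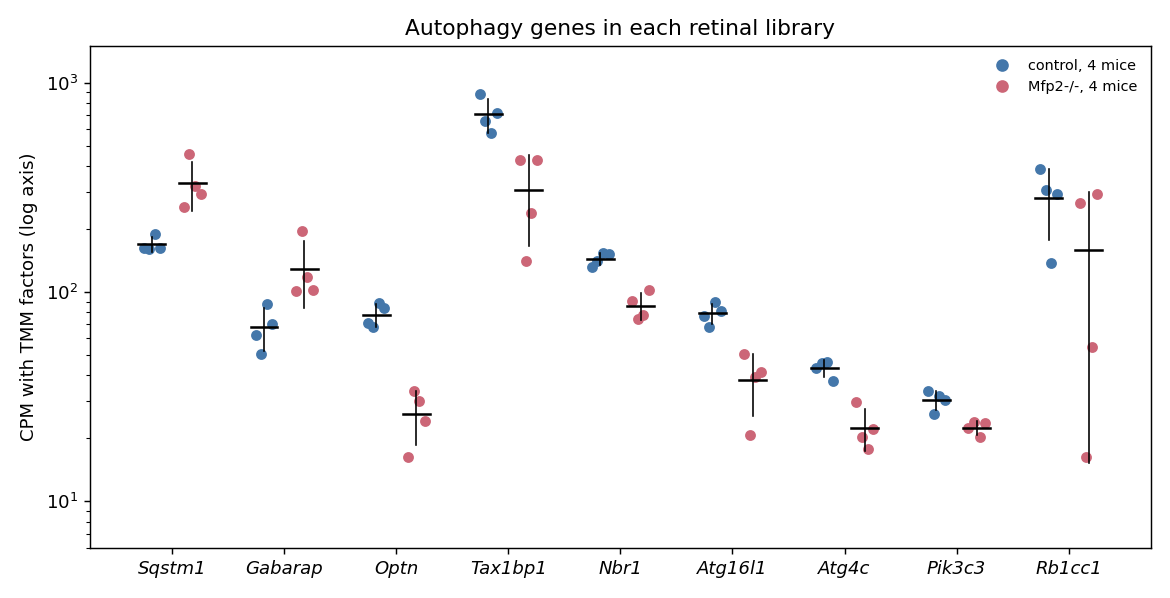
Levels of the 8 called autophagy genes and of Rb1cc1 in each library (y axis, CPM on a log axis), with points for the 4 control and 4 Mfp2-/- mice, horizontal lines for means and vertical lines for the SD. Sqstm1 and Gabarap lie above the controls in every Mfp2-/- library and the 6 genes that fell lie below, while the Rb1cc1 values overlap and spread from 16.3 to 293 CPM among Mfp2-/- retinas.

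Ratios of counts between 2 genes of the same library do not depend on the scaling of the libraries. The pairs were chosen after the values were seen, and the ratios are given as a description. The ratio of Sqstm1 to Nbr1 was 1.24, 1.13, 1.24 and 1.08 in controls and 2.79, 6.16, 4.15 and 2.90 in Mfp2-/- retinas. That of Sqstm1 to Optn was 2.30, 2.35, 2.14 and 1.93 in controls and 15.6, 13.6, 10.6 and 12.2 in Mfp2-/- retinas. Sqstm1 levels lay above all controls in every Mfp2-/- library, and those of Nbr1, Optn and Tax1bp1 lay below. That these ratios do not overlap therefore follows from the levels and is no separate result. For Sqstm1 to Tax1bp1 the ranges were 0.185 to 0.331 and 0.597 to 3.26, the 2 highest ratios being those of Mfp2-/- replicates 2 and 3.

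**Figure D3:**
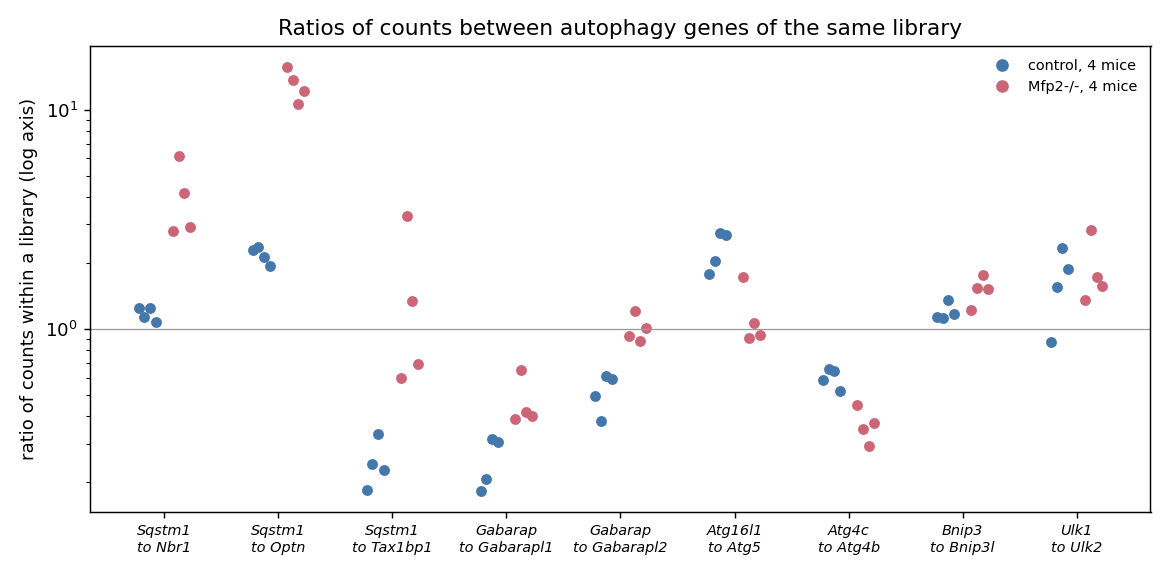
Ratios of counts between 2 autophagy genes in each library (y axis, log axis, no unit), with points for the 4 control and 4 Mfp2-/- mice. The ratios of Sqstm1 to Nbr1, Optn and Tax1bp1 and of Gabarap to Gabarapl1 and Gabarapl2 lie higher in all Mfp2-/- libraries than in any control, those of Atg16l1 to Atg5 and Atg4c to Atg4b lie lower, and those of Bnip3 to Bnip3l and Ulk1 to Ulk2 overlap.

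The sequences before the start sites of 5 called genes are shown, Sqstm1, which rose, and Optn, Tax1bp1, Nbr1 and Atg4c, which fell. They are the called genes that had a RefSeq window with at least 200 bases before the first base that GENCODE gives the gene. No window was found for Atg16l1 and Pik3c3, and that of Gabarap lay mostly inside the gene. The sequences are from RefSeq (GRCm38.p6) and are printed 5′ to 3′ on the strand of the gene. Sqstm1 is at chr11:50210828-50211070 (minus strand), Optn at chr2:5064118-5064367 (minus strand), Tax1bp1 at chr6:52713479-52713728 (plus strand), Nbr1 at chr11:101551857-101552106 (plus strand) and Atg4c at chr4:99193684-99193933 (plus strand). Capitals mark the letters TAATCC, a core recognised by homeodomain proteins of the OTX family, which photoreceptors use, and which is present in Optn and Atg4c and in none of the other 3.
Sqstm1: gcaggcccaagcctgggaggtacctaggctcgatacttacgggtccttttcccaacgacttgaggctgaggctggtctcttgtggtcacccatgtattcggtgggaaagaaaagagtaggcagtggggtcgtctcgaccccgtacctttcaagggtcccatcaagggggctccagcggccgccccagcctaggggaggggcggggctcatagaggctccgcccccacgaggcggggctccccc
Optn: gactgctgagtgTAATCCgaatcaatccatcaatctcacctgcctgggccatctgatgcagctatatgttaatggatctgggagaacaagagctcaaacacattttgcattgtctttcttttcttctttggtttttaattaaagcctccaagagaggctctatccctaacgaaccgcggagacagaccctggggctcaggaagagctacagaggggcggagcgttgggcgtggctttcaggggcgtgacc
Tax1bp1: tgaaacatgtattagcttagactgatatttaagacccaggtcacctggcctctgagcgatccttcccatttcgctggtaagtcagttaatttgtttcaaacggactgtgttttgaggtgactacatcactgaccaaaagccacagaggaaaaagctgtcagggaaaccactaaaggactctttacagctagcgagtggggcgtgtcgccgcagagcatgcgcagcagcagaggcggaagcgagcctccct
Nbr1: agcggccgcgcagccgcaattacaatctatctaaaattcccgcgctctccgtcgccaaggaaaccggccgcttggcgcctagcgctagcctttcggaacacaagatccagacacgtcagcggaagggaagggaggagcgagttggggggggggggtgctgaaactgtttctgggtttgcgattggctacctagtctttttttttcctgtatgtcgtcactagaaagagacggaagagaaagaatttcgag
Atg4c: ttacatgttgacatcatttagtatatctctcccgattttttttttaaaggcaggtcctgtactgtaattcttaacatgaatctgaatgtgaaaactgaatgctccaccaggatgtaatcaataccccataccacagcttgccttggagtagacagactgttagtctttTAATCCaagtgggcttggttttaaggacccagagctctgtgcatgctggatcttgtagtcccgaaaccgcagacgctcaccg

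A window of 250 bases before the RefSeq start, the furthest upstream where a gene had several, was found for 34 of the 42 members, and motifs were searched on both strands in these and in the windows of all 27025 genes. For 5 members, Atg4b, Atg7, Atg14, Wipi1 and Wipi2, this window lay inside the gene as GENCODE gives it. TAATCC lay in 5 members, Ambra1, Atg4c, Atg7, Atg9b and Optn, which is 14.7% against 6.37% of all genes, and began 238 bases before the start in Optn and 82 bases before it in Atg4c. Of these 5, Optn and Atg4c fell, Ambra1 and Atg7 were not called and Atg9b was not tested. CACGTG, the core of the element bound by TFEB and its relatives, lay in 4 members, Atg3, Atg5, Atg7 and Bnip3 (11.8% against 6.04%), none of which was called. TGACNNNGC, the core bound by NRF2, lay in Atg13 and Ulk2 (5.88% against 10.1%). TGATGCAA, a composite site of ATF4 and C/EBP proteins, lay in 0 members and 0.825% of all genes. A match or its absence describes only the letters of these windows.

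The ATG8 family had 1 of 5 genes higher and 4 not called, beside 13.8% higher among all genes tested. Gabarap, which encodes an ATG8 protein that recruits the ULK1 complex and many receptors, stood at 62.6, 50.7, 88.1 and 70.4 CPM in controls and at 102, 197, 118 and 102 CPM in Mfp2-/- retinas. All Mfp2-/- values were above the controls, and replicate 2 was far above the other 3. Gabarap rose 1.896-fold, from 67.9 ± 15.7 to 130 ± 45.4 CPM (SD, n = 4), with a log2 fold change of 0.92 (SE 0.24, edgeR adjusted p = 0.0169). It was 0.57 without Mfp2-/- replicates 2 and 3 (adjusted p = 0.0265), and the call was lost without control replicate 1 (0.88, adjusted p = 0.0512) or control replicate 2, the Mfp2+/- mouse (0.80, adjusted p = 0.0574).

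The other ATG8 genes were not called. Map1lc3b, which encodes the LC3 protein most used to count autophagosomes, was at 156 to 211 CPM in controls and 152 to 203 CPM in Mfp2-/- retinas (log2 fold change 0.04, 95% interval -0.28 to 0.36). Map1lc3a had a log2 fold change of 0.26 (-0.10 to 0.62), Gabarapl1 of 0.0038 (-0.33 to 0.33) and Gabarapl2 of -0.05 (-0.41 to 0.31). Without Mfp2-/- replicates 2 and 3 Map1lc3a was at -0.01 (edgeR adjusted p = 0.954) and Gabarapl2 at -0.32 (0.0847). Within each library the ratio of Gabarap to Gabarapl1 was 0.184 to 0.314 in controls and 0.389 to 0.650 in Mfp2-/- retinas, and that of Gabarap to Gabarapl2 was 0.380 to 0.611 and 0.884 to 1.21, without overlap in both pairs. The ratio of Gabarap to Map1lc3b overlapped between the genotypes (0.296 to 0.535 and 0.505 to 1.04), as did that of Map1lc3a to Map1lc3b (0.907 to 1.18 and 0.955 to 1.396).

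In the conjugation system that attaches ATG8 proteins to lipid, 1 of 7 genes was lower and 6 were not called. Over all genes tested 13.2% were lower. Atg16l1 encodes the scaffold that brings the ATG12 and ATG5 conjugate to the membrane. Its level was 77.2, 68.3, 89.7 and 81.2 CPM in controls and 50.6, 20.8, 39.3 and 41.6 CPM in Mfp2-/- retinas. The groups did not overlap, and Mfp2-/- replicate 2 was the lowest. Atg16l1 fell 2.06-fold, from 79.1 ± 8.87 to 38.1 ± 12.5 CPM (SD, n = 4), with a log2 fold change of -1.04 (SE 0.22, edgeR adjusted p = 0.00622), and by 0.79 on the log2 scale without Mfp2-/- replicates 2 and 3 (adjusted p = 0.00217).

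Its partners did not pass. Atg5 was at 30.3 to 43.3 CPM in controls and 22.9 to 44.1 CPM in Mfp2-/- retinas (log2 fold change -0.06, 95% interval -0.52 to 0.40), and Atg12, the ubiquitin-like protein joined to ATG5, had a log2 fold change of -0.24 (-0.55 to 0.06). For the activating enzyme Atg7 it was 0.21 (-0.19 to 0.61), and for the conjugating enzymes Atg3 and Atg10 it was -0.24 (-0.61 to 0.12) and 0.0098 (-0.50 to 0.52). Atg16l2, a relative of ATG16L1, had a value of 0.07 (-0.48 to 0.63). It shares 25 exon bases with Fchsd2 on the other strand, and how reads from those bases were counted is not known. The ratio of Atg16l1 to Atg5 counts was 1.78 to 2.75 in controls and 0.911 to 1.72 in Mfp2-/- retinas, without overlap, while that of Atg16l1 to Atg12 overlapped (0.659 to 0.983 and 0.238 to 0.688).

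ATG4 proteases cut ATG8 proteins before conjugation and release them from lipid afterwards. In this role 1 of 4 genes was lower, beside 13.2% of all genes tested. Atg4c stood at 43.3, 45.7, 46.4 and 37.6 CPM in controls and at 29.7, 20.3, 17.8 and 22.1 CPM in Mfp2-/- retinas. The groups were separate and Mfp2-/- replicate 1 lay nearest to the controls. Atg4c fell 1.92-fold from 43.3 ± 3.99 to 22.5 ± 5.13 CPM (SD, n = 4), with a log2 fold change of -0.94 (SE 0.18, edgeR adjusted p = 0.00298). Without Mfp2-/- replicates 2 and 3 it was -0.74 (edgeR adjusted p = 0.00928). Atg4b, the most active of the family, was at 69.7 to 73.9 CPM in controls and 57.9 to 65.8 CPM in Mfp2-/- retinas. These groups did not overlap either, but the log2 fold change was small at -0.24 and did not pass (adjusted p = 0.134). Atg4a (-0.14, 95% interval -0.76 to 0.48) and Atg4d (-0.29, -0.67 to 0.08) were not called, and Atg4d shares exon bases with Kri1 on the other strand. The ratio of Atg4c to Atg4b was 0.519 to 0.656 in controls and 0.293 to 0.452 in Mfp2-/- retinas.

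The class III phosphoinositide 3-kinase complex had 1 of 6 genes lower, beside 13.2% of all genes tested. Pik3c3, its catalytic subunit VPS34, stood at 33.5, 26.2, 31.9 and 30.3 CPM in controls and at 22.3, 23.9, 20.2 and 23.5 CPM in Mfp2-/- retinas. The groups were separate by a narrow gap. Pik3c3 fell 1.36-fold from 30.5 ± 3.12 to 22.5 ± 1.68 CPM (SD, n = 4), with a log2 fold change of -0.45 (SE 0.15, edgeR adjusted p = 0.0437). This call was fragile and passed under only 6 of 19 alternative settings. Leaving out Mfp2-/- replicates 2 and 3 gave -0.42 (adjusted p = 0.114).

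The remaining subunits were not called. Pik3r4, the regulatory subunit VPS15, was at 39.4 to 45.8 CPM in controls and 30.1 to 39.0 CPM in Mfp2-/- retinas, without overlap, and had a log2 fold change of -0.27 (adjusted p = 0.158). Uvrag, the subunit of the endosomal form of the complex, was at 35.7, 32.6, 34.8 and 22.99 CPM in controls and at 25.1, 15.2, 21.9 and 25.7 CPM in Mfp2-/- retinas. Control replicate 4 lay among the Mfp2-/- values, and the log2 fold change of -0.51 did not pass (adjusted p = 0.0903) except without that library (-0.63, adjusted p = 0.0479). Becn1, which encodes beclin 1, was at 74.0 ± 6.54 CPM in controls and 74.0 ± 13.1 CPM in Mfp2-/- retinas (SD, n = 4), with a log2 fold change of -0.0013 (95% interval -0.33 to 0.33). Atg14, of the autophagy-specific form, and its regulator Ambra1 had log2 fold changes of -0.09 (-0.53 to 0.34) and -0.08 (-0.38 to 0.21).

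Of the genes of ATG9, ATG2 and WIPI lipid supply, 0 of 4 tested were called by edgeR or limma-voom, 1 by DESeq2, and 1 had an unadjusted p under 0.05. Over all genes tested edgeR called 27%. Wipi1, a reader of the phosphoinositide made by VPS34, was at 137, 105, 129 and 109 CPM in controls and at 139, 159, 148 and 193 CPM in Mfp2-/- retinas. The groups did not overlap, but control replicate 1 came close to Mfp2-/- replicate 1, and the log2 fold change of 0.41 (SE 0.15) missed the threshold (adjusted p = 0.0613). It passed under 6 of the 19 alternatives, among them DESeq2 (0.42, adjusted p = 0.0471) and the comparison without Mfp2-/- replicates 2 and 3 (0.46, adjusted p = 0.0409). Its relative Wipi2, which recruits ATG16L1, was at 73.5 to 90.3 CPM in controls and 66.6 to 73.3 CPM in Mfp2-/- retinas (log2 fold change -0.24, adjusted p = 0.150). The lipid transporters Atg2a (-0.10, 95% interval -0.55 to 0.35) and Atg2b (-0.17, -0.54 to 0.19) were not called. Atg2b shares exon bases with Gskip on the other strand.

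The ULK1 initiation complex had 0 of 5 genes called by edgeR, DESeq2 or limma-voom, and 0 with an unadjusted edgeR p under 0.05. Among all genes tested edgeR called 27%. Its kinase genes Ulk1 and Ulk2 had log2 fold changes of 0.04 (95% interval -0.39 to 0.46) and -0.12 (-0.51 to 0.27), and the subunits Atg13 and Atg101 had 0.06 (-0.30 to 0.43) and -0.10 (-0.59 to 0.39). Without Mfp2-/- replicates 2 and 3 Atg101 was at -0.51 (edgeR adjusted p = 0.0761). Rb1cc1, which encodes the scaffold FIP200, was the exception in its spread. It stood at 389, 306, 138 and 293 CPM in controls and at 268, 16.3, 54.5 and 293 CPM in Mfp2-/- retinas. Mfp2-/- replicates 1 and 4 lay within the range of the controls, whereas replicates 2 and 3 lay below it.

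The log2 fold change of Rb1cc1 was -0.83 with an SE of 0.68 (95% interval -2.33 to 0.68, edgeR adjusted p = 0.392), the only interval among the 31 members not called that reached past -1 or 1. The 3 libraries with the lowest Rb1cc1 levels were also the 3 with the smallest share of reads outside annotated genes, in the same order, at 10.8% and 15.7% for Mfp2-/- replicates 2 and 3 and 22.6% for control replicate 3. Without Mfp2-/- replicates 2 and 3 the log2 fold change was -0.0073 (adjusted p = 0.988), and with the share of reads outside genes as a covariate it was -0.13 (adjusted p = 0.654). For Tax1bp1, whose lowest levels were in the same libraries, the covariate gave -0.80 (adjusted p = 4.1e-04), so this gene was lower in Mfp2-/- retinas in each of these fits.

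**Figure D4:**
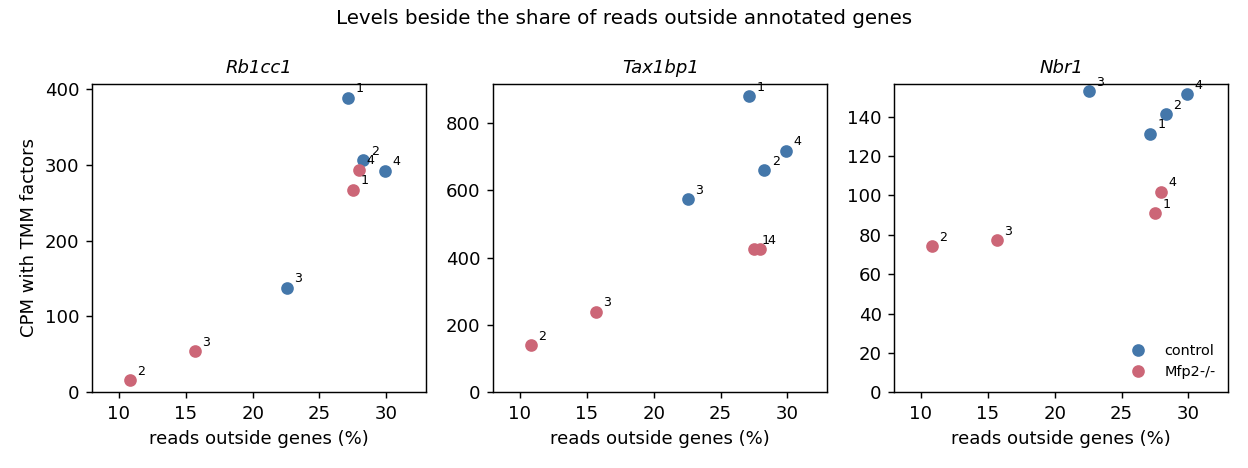
Levels of Rb1cc1, Tax1bp1 and Nbr1 (y axes, CPM) against the percentage of all reads outside annotated genes (x axes), with 1 point for each library, numbered by replicate. Rb1cc1 is lowest in Mfp2-/- replicates 2 and 3 and next in control replicate 3, while Nbr1 separates the genotypes also among the libraries with 22.6% or more.

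The receptor genes Bnip3, Bnip3l and Calcoco1 were taken apart from the ubiquitin-binding receptors above. Of these, 0 of 3 were called by edgeR, DESeq2 or limma-voom, and 0 had an unadjusted edgeR p under 0.05. Over all genes tested edgeR called 27%. Bnip3, a receptor on mitochondria under low oxygen, was at 84.1 to 99.99 CPM in controls and 94.1 to 129 CPM in Mfp2-/- retinas (log2 fold change 0.25, 95% interval -0.06 to 0.55). Its relative Bnip3l, required for clearing mitochondria from maturing red blood cells, was the most even member among controls, at 75.1 ± 1.65 CPM against 70.7 ± 5.73 CPM in Mfp2-/- retinas (SD, n = 4), and had a log2 fold change of -0.09 (-0.34 to 0.17). Calcoco1, a receptor for the endoplasmic reticulum and the Golgi, had a log2 fold change of -0.29 (-0.63 to 0.06).

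The 39 members tested varied among themselves in level and in spread. Mean control levels ranged from 7.31 CPM for Atg4a to 707 CPM for Tax1bp1 with a median of 65.9 CPM, against 27.3 CPM over all genes tested. Since 1 read is counted per 3′ end, these levels are not divided by transcript length. The coefficient of variation of these 39 genes was 2.20% to 37.2% among controls, with Bnip3l the most even and Rb1cc1 the least. Its median was 12.9% among controls and 19.7% among Mfp2-/- retinas, and 28 of the 39 genes were more variable in Mfp2-/- retinas. The same was not counted over all genes, so whether it is particular to autophagy genes was not tested. For 30 of the 31 members not called the 95% interval lay within -1 and 1 on the log2 scale, so a change of over 2-fold was outside the interval of all of these but Rb1cc1.

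Other genes of the pathway were taken from 4 lists of 83 genes, of which 77 were tested. Of these 3 were higher and 9 lower (15.6%, below the 27% of all genes), and their median log2 fold change was -0.08. This balance depended on the scaling, since 10 were higher and 6 lower with total counts alone. Among further genes of the phagophore and further receptors 1 of 22 was lower. This was Ccpg1, a receptor for the endoplasmic reticulum, which fell from 58.5 ± 7.09 to 28.8 ± 6.59 CPM (SD, n = 4; log2 fold change -1.01, edgeR adjusted p = 0.00209). Fundc1 (0.51, adjusted p = 0.0609), Wdfy3 (-0.47, 0.0696) and Ubqln2 (0.39, 0.0878) had the next smallest adjusted p and did not pass. Without Mfp2-/- replicates 2 and 3 Fundc1, a receptor on mitochondria, passed (0.64, adjusted p = 0.0149).

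Of the genes for fusion of autophagosomes with lysosomes 0 of 13 were called by edgeR, DESeq2 or limma-voom, and 3 had an unadjusted edgeR p under 0.05. By adjusted p edgeR called 27% of all genes tested. The share of all genes at the unadjusted threshold is not given here. The smallest adjusted p was that of Plekhm1, an adaptor between RAB7 and the fusion machinery, with a log2 fold change of -0.43 (adjusted p = 0.0787). Rab7 had 0.38 (0.0841), Vps33a 0.38 (0.119) and Vps18 -0.32 (0.216).

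TORC1 and AMPK are the kinases that restrain and promote autophagy according to nutrients and energy. Their regulators had 2 of 31 genes higher and 8 lower (32.3%), near the 27% called among all genes tested. Prkab1, a regulatory subunit of AMPK, had the furthest change, from 37.5, 52.5, 74.2 and 57.8 CPM in controls to 11.7, 12.7, 12.4 and 12.1 CPM in Mfp2-/- retinas. The controls spread widely, the Mfp2-/- values were close together, and the groups were far apart (log2 fold change -2.18, SE 0.21, edgeR adjusted p = 3.4e-05). Also lower were Prkab2, the other subunit of that kind (-0.67, adjusted p = 0.00501), Fnip2, a partner of folliculin (-1.37, adjusted p = 0.0025), and Deptor, an inhibitor of mTOR (-0.76, adjusted p = 0.00557). The genes named had the smallest adjusted p of this list, and the 2 higher genes were not among them.

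Among transcription factors that act on autophagy genes 1 of 11 was higher, beside 13.8% of all genes tested. Ddit3, which encodes CHOP, a factor of the response to unfolded proteins, rose from 107 ± 14.8 to 195 ± 37.8 CPM (SD, n = 4; log2 fold change 0.86, SE 0.17, edgeR adjusted p = 0.00413). Nfe2l2, which encodes NRF2 and acts on Sqstm1, had a log2 fold change of 0.43 (adjusted p = 0.0882) and passed without Mfp2-/- replicates 2 and 3 (0.59, adjusted p = 0.0235). Tfe3 and Zkscan3, an activator and a repressor of autophagy genes, had 0.29 (adjusted p = 0.153) and -0.46 (adjusted p = 0.170).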

How the data were processed

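The authors deposited whole-number counts of reads per gene symbol for each library, made without normalization. Their processing notes name FastQC 0.11.7, HISAT2, SAMtools 1.5, HTSeq 2.7.14 and mm10. For the version of HISAT2, the annotation and the strand setting, the entry is: not given in the sources used here. The authors' table of all libraries was left out.

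Tests were run with edgeR 4.0.16 under R 4.3.3 (TMM factors, filterByExpr, quasi-likelihood test of Mfp2-/- against control without covariates, Benjamini-Hochberg adjustment over all genes kept). Levels are CPM with TMM factors. DESeq2 1.42.0, limma-voom (limma 3.58.1), other scalings and filters, a replicate block, leaving out libraries, and a covariate were alternatives, the covariate being chosen after seeing the data. The script was tested on simulated data. The members and lists were chosen with earlier results of these data known. All members could be named, with Hsd17b4, up to 4 genes with the smallest adjusted p of each further list, and summed markers. Coordinates are GRCm38. Reads were not collapsed by molecule. No 2 libraries were alike within sampling noise.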

Additional observations from a re-analysis of the deposited data

Results flagged for a closer look

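In 5 of 78 groups of 4 libraries examined, 1 library lay far from the others by Dixon's test, which happens by chance in about 1 in 20 groups. Gabarap was at 197 CPM in Mfp2-/- replicate 2, against 102 to 118 CPM in the other 3 Mfp2-/- libraries. Sqstm1 was at 189.7 CPM in control replicate 3, against 159.7 to 163 CPM in the other controls and below every Mfp2-/- library. Map1lc3b was at 211 CPM in control replicate 1, against 156 to 165 CPM. Atg2b was at 83.6 CPM in control replicate 4, against 58.1 to 61.9 CPM. Atg7 was at 20.2 CPM in Mfp2-/- replicate 1, against 31.3 to 33.03 CPM in the other Mfp2-/- libraries.

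Outside the counts of genes, reads that were not aligned made up at least 17.8% in each Mfp2-/- library and 15.3% to 16.9% in the controls. The part of this difference in the results on autophagy genes was not tested.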

How the results depend on the processing

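Of the 8 members called, 5 (Optn, Sqstm1, Nbr1, Atg16l1 and Atg4c) passed under all 19 alternatives, and 0 changed sign. Of the members not called, 18 changed sign under at least 1 alternative and 2 passed under at least 1 (Wipi1 and Uvrag). Leaving out 1 library at a time gave 1 to 3 members called higher, 4 to 6 called lower, 2474 to 3524 genes called in all and 2 to 5 other autophagy-related genes called higher. The count of 1 came from leaving out control replicate 1 or control replicate 2, and the count of 5 from leaving out Mfp2-/- replicate 2. In place of 3 other autophagy-related genes called higher there were 9 with upper-quartile factors, 10 with total counts alone, 5 without both Mfp2-/- replicates 2 and 3 and 5 with the share of reads outside genes as a covariate. The cause was not tested. Without both of these libraries Gabarap went from 0.92 to 0.57, Tax1bp1 from -1.20 to -0.74 and Pik3c3 lost its call. Pik3c3 also lost it with DESeq2 (-0.44, adjusted p = 0.0954), with no filter on low counts, with the covariate, with upper-quartile factors or total counts alone and in 6 of the 8 fits that left out 1 library (all but those of control 2 and Mfp2-/- 2).

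The libraries share replicate numbers. Deviations of same-numbered libraries correlated at 0.08, -0.16, 0.25 and 0.21, and those of differently numbered libraries at -0.44 to 0.48. These values gave no clear sign of pairing by number, but they cannot exclude it. With the replicate number as a block 2845 genes and 7 members were called, 2 higher and 5 lower, with Pik3c3 lost (-0.44, adjusted p = 0.104).

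With 4 mice a group the median SE of a log2 fold change among members was 0.17, and Atg9a and Atg9b had too few counts to be tested. The annotation used for counting is not named, and reads of genes that overlap on opposite strands (Atg16l2, Atg2b, Atg4d and, with 12.1% as many counts, Zcchc14 beside Map1lc3b) may not be separable. The same holds for Atg9b beside Nos3 and for Atg9a, which shares exon bases with Gm29253 on its own strand. Further members share exon bases with a gene of fewer counts on the other strand. These include Sqstm1 (580 bases with Mrnip, 0 counts), Becn1 (3104 with Cntd1, 3.78% as many counts) and Uvrag (1589 with Gm45187, 0 counts).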
